A study of Equus caballus with 13 samples.

Results

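Heat-shock proteins and their co-chaperones were followed as a family of 75 genes in cultured horse chondrocytes, the resident cells of cartilage. The members were chosen by gene name: HSPA, HSPB, HSPD, HSPE, HSPH and HSP90 genes, the DNAJA, DNAJB and DNAJC co-chaperones, BAG genes, the CCT chaperonin and prefoldin subunits, and 7 single genes (TCP1, HSF1, HSF2, STIP1, AHSA1, ST13 and STUB1). HSPG2, HSPBP1 and HSPBAP1, which are not chaperones of these families despite their names, were left out. No measured value entered the name rule itself, but a gene could be a member only where the authors listed kinetic values for it, and the family was proposed with earlier results of these data known. The authors' table for age held 74 members among 11056 genes and their table for sex held 75 among 11249, out of 11331 genes listed in either. HSPB2 was listed in the sex table only. TCP1, the remaining subunit of the CCT chaperonin, and BAG3, HSPB8 and DNAJB9 also fit the name rule. No values were listed for them under these names, so they were not analysed here.

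The labels gave 13 wild-type samples: 5 of old female, 5 of young female and 3 of young male horses, with no ages in years. In all of them, cells isolated from cartilage had been cultured for 2 days and exposed to 4-thiouridine (4sU), a uridine analogue built into newly made RNA, for 4 h. The authors' tables list, per gene, 1 RNA synthesis rate and 1 RNA half-life in a group, so every value below is a group estimate with no SD or n. The young female samples entered both tables, and each group was compared with the young female values of its own table.

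Chaperones bind unfolded or newly made proteins and let them fold without clumping. HSP70 proteins do so in cycles of ATP hydrolysis that J-domain (DNAJ) co-chaperones start and nucleotide exchange factors such as BAG proteins end; HSP90 proteins and the ring-shaped chaperonins act on more selected clients. Heat-shock factors switch on the inducible genes of the family when unfolded protein builds up, whereas a separate stress response supplies the chaperones of the endoplasmic reticulum, where chondrocytes fold their collagen and other secreted matrix proteins.

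Differences are given as log2 ratios, old over young female or young male over young female. The implied level, without a unit, is synthesis rate times half-life over ln 2, so that on the log2 scale both ratios add up to that of the level. It stands for the amount of RNA only if levels were steady during labelling. A ratio of at least 1 in either direction, a 2-fold difference, was taken as past the threshold. No values per sample were given, so the spread between animals cannot be set beside any difference, and the depth behind each value is unknown. Fewer cells of a type and less RNA per cell cannot be told apart in such cultures. Whether synthesis rates were given per length of gene was not stated, so no gene's rate or level is described as above or below another's. Levels were ordered within a role only to pick genes to name, rates were ordered for 1 alternative filter, and the summed marker levels may weight long genes more. Half-lives were read as hours and are compared between genes.

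In young female cells the members' half-lives ran from 0.82 h for DNAJB4 to the ceiling of 69.3 h for DNAJC10, with a median of 5.43 h against 3.64 h over all genes of the age table. Of the 74 members, 49 lay above the median of all genes and 66 lay between 1 and 24 h, the range taken as resolvable with 4 h of labelling. That range held 89.2% of members and 86.7% of all genes. The 7 CCT subunits, which form 1 cytosolic ring for actin and tubulin among other clients, had half-lives of 5.25 h (CCT2) to 11.6 h (CCT7). All 7 lay above the median of all genes. The 4 DNAJA co-chaperones were short-lived by comparison, from 1.95 h for DNAJA2 to 3.17 h for DNAJA1, all below it. The 23 DNAJC co-chaperones, a class that shares little beyond the J domain, covered nearly the whole range, from 0.913 h for DNAJC30 to the ceiling.

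Genes were also grouped by compartment from general knowledge, after their values had been seen, so the order below is a description. The 7 members whose proteins lie in or face the lumen of the endoplasmic reticulum had a median of 20.0 h. HSPA13, an HSP70 relative, was the shortest of them at 4.63 h. HSPA5, the main HSP70 of the compartment (BiP), stood at 12.8 h and its J-domain partners DNAJC1, DNAJC3 and DNAJB11 at 17.9, 20.0 and 23.5 h. HSP90B1, the HSP90 of the same compartment (GRP94), stood at 50.5 h and DNAJC10, a J protein that also reduces disulfide bonds, at the ceiling. Among cytosolic counterparts the half-lives were 2.96 h for HSPA8, the constitutive HSP70, 3.77 h for the inducible HSPA1B, 2.11 h for their J-domain partner DNAJB1, 8.70 h for HSP90AB1 and 14.7 h for HSP90AA1. The ranges overlapped, since other cytosolic members such as HSPB6 (16.4 h), ST13 (16.5 h), HSPB1 (24.6 h) and PFDN5 (29.3 h) were long-lived too. The 8 mitochondrial members had a median of 6.35 h, with HSPA9, the mitochondrial HSP70, at 7.66 h and the chaperonin pair HSPE1 and HSPD1 at 6.83 and 11.5 h.

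**Figure D1:**
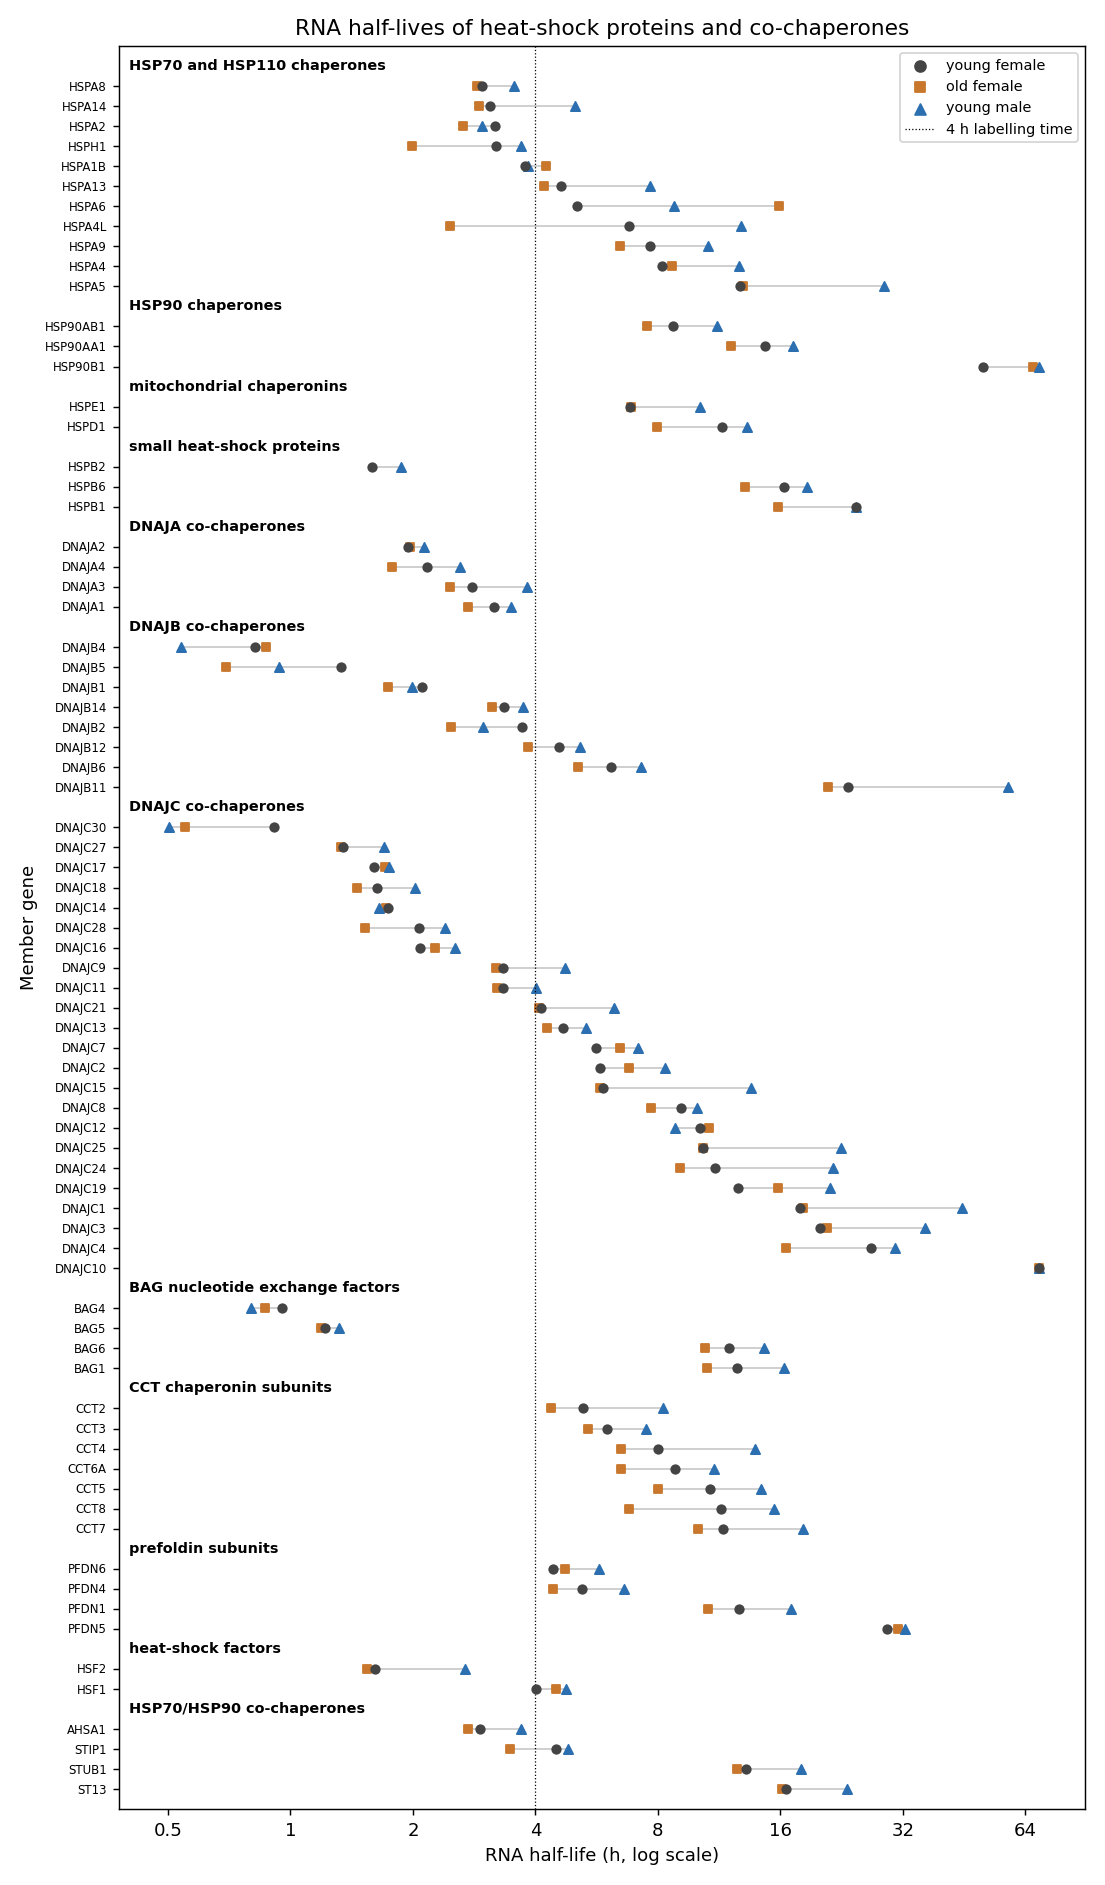
RNA half-lives (h, log scale) of the 75 members by role, with 1 marker for each group: circles for young female cells (age table, or sex table for HSPB2), squares for old female, triangles for young male; grey lines join the markers of a gene and the dotted line marks 4 h. Endoplasmic reticulum members such as HSPA5, DNAJC1 and DNAJB11 are among those with longer male half-lives. HSPA4L has the largest fall in half-life from young female to old cells, 6.79 to 2.47 h.

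Few members were past the 2-fold threshold in either comparison. In old cells 2 of 74 members were past it for half-life, HSPA6 upward and HSPA4L downward, against 3.53% of all genes (1.47% longer, 2.06% shorter). For synthesis rate there were 3, HSPA4L and DNAJB5 upward and HSPA6 downward, against 7.52% of all genes (4.59% higher, 2.92% lower). For implied level there was 1, HSPA6, downward, against 4.12% of all genes (2.13% higher, 1.99% lower). HSPA6 gives 1 of these calls in each quantity, so 1, 2 and 0 calls were left without it.

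In male cells 5 of 75 members had half-lives past the threshold, all longer: HSPA5, DNAJB11, DNAJC1, DNAJC15 and DNAJC25. Over all genes the share was 7.58% (5.62% longer, 1.96% shorter). Synthesis rates were past it for 5, all lower: HSPA6, HSPA4L, HSPH1, HSF2 and DNAJC1, against 12.2% of all genes (3.78% higher, 8.37% lower). Implied levels were past it for HSPA6 and HSPH1, both lower, against 4.61% of all genes (3.00% higher, 1.61% lower); without HSPA6, 1 was left. The male half-life calls depended on scale. After centring on the median of all genes DNAJB11 (1.03) and DNAJC1 (1.05) were left, and DNAJC30 was past the threshold on the shorter side (−1.13); within deciles of half-life 0 members were past it. Of the 5 low synthesis rates, HSPA6, HSPA4L (−1.08) and HSPH1 (−1.05) were left after centring and HSPA6 within deciles. DNAJC30 was past the threshold upward under both (1.20 and 1.24), but its half-lives were all under 1 h, below the resolvable range.

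At a lower threshold, a log2 ratio of 0.5, the share for male synthesis was above that of all genes: 41 of 75 members (54.7%), 38 of them lower, against 41.1%. For male half-life the members' share was 32% and that of all genes 31.8%, and for male level 18.7% and 25.0%. In old cells the members' shares were 13.5% for half-life against 13.4%, 8.11% for synthesis rate against 23.0%, and 8.11% for level against 15.6%. The median log2 ratio of male synthesis was −0.51 over members and −0.28 over all genes, and 61 of 75 members (81.3%) were below 0 against 71.1% of genes. Male half-lives had medians of 0.31 and 0.27, and male levels −0.05 and 0.01. In old cells the members' medians were −0.14 for half-life (all genes −0.08), 0.06 for synthesis rate (0.08) and −0.05 for level (0.00).

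**Figure D2:**
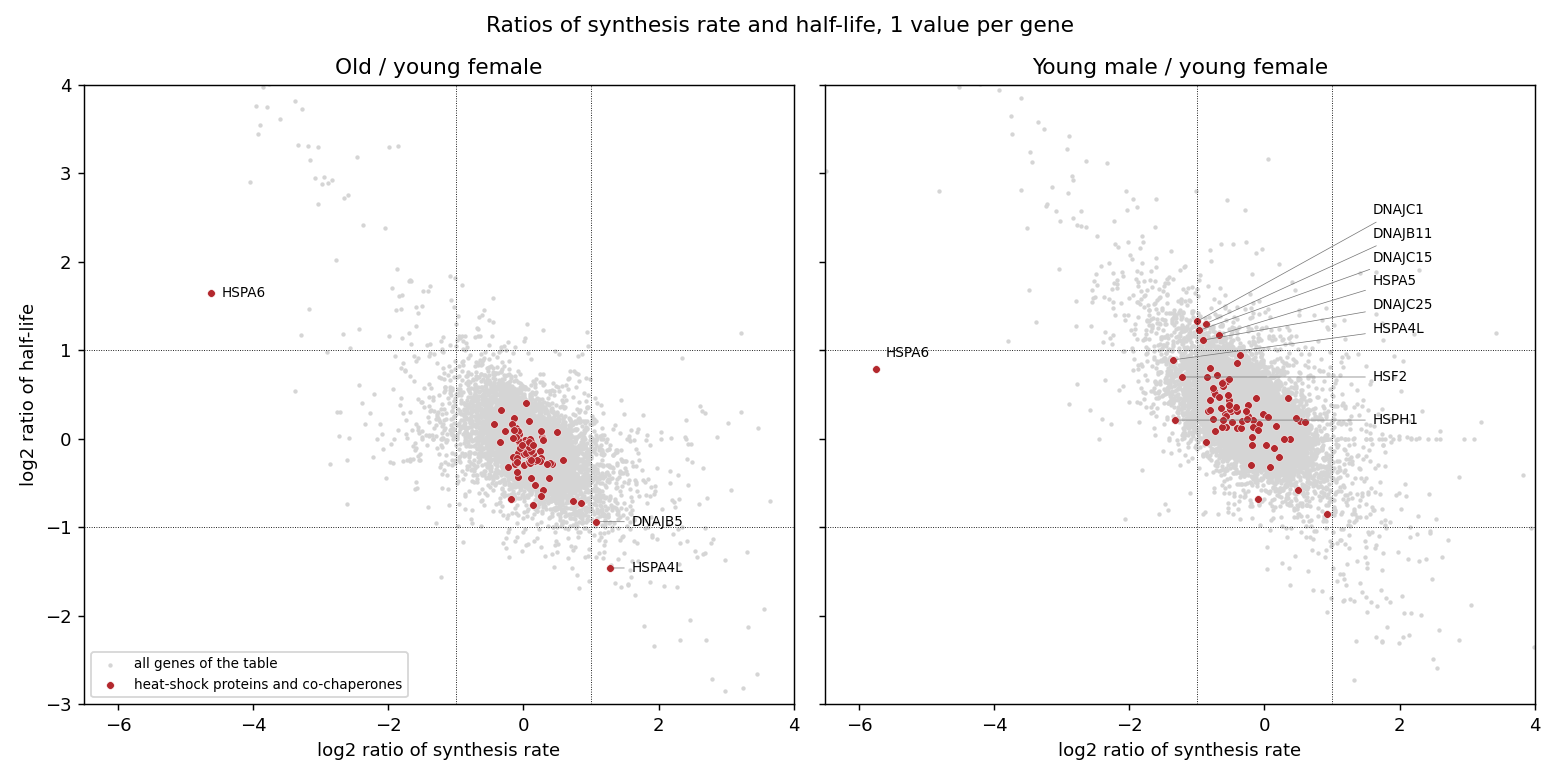
Log2 ratios of synthesis rate (x axis) and half-life (y axis), old over young female on the left and young male over young female on the right; grey points are all genes of the table, red points the members, and dotted lines mark 2-fold differences. HSPA6 stands far to the left in both panels, at −4.62 and −5.76, and 173 and 163 genes, none of them members, lie outside the axes.

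HSPA6 had the largest differences of the family in synthesis rate and in implied level, in both comparisons. It encodes an HSP70 that human cells make almost only under stress. The age table listed its synthesis rate as 343 for young female and 14.0 for old cells, and the sex table as 328 for young female and 6.06 for male cells. The rate was thus 24.5-fold lower in old and 54.0-fold lower in male cells. Its half-life was 5.06 h in young female and 15.8 h in old cells, and 5.05 h in young female and 8.74 h in male cells. On the listed values the longer half-lives offset part of the lower synthesis. The implied level was 7.83-fold lower in old cells and 31.2-fold lower in male cells. The old and male half-lives were estimated where the synthesis rate was far below that of young female cells, and the depth behind them is unknown. The male level ratio of HSPA6, −4.96, was the lowest of all 11249 genes in the sex table, and the old ratio, −2.97, the third lowest of 11056 in the age table. Both comparisons rest on the same young female libraries, so the ratios are not separate evidence. The values listed for those libraries differed by 0.196% in half-life between the tables. With 1 value a group, how many of the 5 young female samples carried the high rate could not be seen.

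Other cytosolic members of the heat-shock response had smaller differences. HSPA1B, an inducible HSP70 close in sequence to HSPA6, had synthesis rates of 2579 in young female and 1900 in old cells, and of 2466 in young female and 2161 in male cells. Its log2 ratios of level were −0.27 and −0.16. DNAJB1, the J-domain partner most strongly induced by heat in many cells, had a level ratio of −0.40 by age and −0.05 by sex. HSPA8, made constitutively and further under stress, had −0.39 and −0.31, HSP90AA1, the more inducible of the cytosolic HSP90 pair, −0.18 and −0.04, and HSPB1, a small heat-shock protein that holds unfolded clients, −0.39 and 0.29. How reads that fit several HSP70 genes were counted is not given in the sources used here, so the split between HSPA6, HSPA1B and their relatives is uncertain.

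HSPH1, the HSP110 that exchanges nucleotide on HSP70 and helps it to dissolve aggregates, was the other member with a low male level. Its synthesis rate was 917 in young female and 365 in male cells (log2 ratio −1.33), with half-lives of 3.18 and 3.69 h, and its level was 2.17-fold lower. By age its synthesis rate was 958 in young female and 844 in old cells (−0.18) and its half-life 3.19 and 1.99 h (−0.68), and the level ratio was −0.87. The male ratios of HSPH1 became −0.92 for synthesis and −0.94 for level when centred within deciles of half-life, just under the threshold.

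HSPA4L, an HSP110 relative, had ratios of opposite sign by age and by sex. Its half-life was 6.79 h in young female and 2.47 h in old cells (−1.46), and 6.90 h in young female and 12.8 h in male cells (0.89). Its synthesis rate was 22.1 in young female and 53.8 in old cells (1.28), and 20.7 in young female and 8.08 in male cells (−1.36, or −0.95 within half-life deciles). Within each comparison the ratios cancelled in large part, with level ratios of −0.18 and −0.47. Its close relative HSPA4 had half-lives of 8.18 h in young female, 8.68 h in old and 12.6 h in male cells, and level ratios of 0.01 and 0.00.

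Among the other HSP70 genes, HSPA9 had the largest difference in synthesis by age after HSPA6 and HSPA4L, 2009 in young female and 3028 in old cells (0.59), with a level ratio of 0.35. In male cells its synthesis ratio was −0.67 and its half-life ratio 0.48. HSPA14, which acts with DNAJC2 at the ribosome, had male ratios of 0.70 for half-life and −0.85 for synthesis rate. DNAJC2 itself had 0.54 and −0.75. HSPA2, an HSP70 best known from the testis, was the 1 member of its class with a shorter male half-life, 2.95 against 3.17 h.

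Male half-lives were over 24 h for 9 of 75 members and for 1356 of all 11249 genes. Of these 9 members, 6 were endoplasmic reticulum members, and the others were DNAJC4, PFDN5 and HSPB1. HSPA5 stood at 12.7 h in young female and 28.8 h in male cells (1.18), DNAJB11 at 23.5 and 57.9 h (1.302), DNAJC1 at 17.9 and 44.9 h (1.33) and DNAJC3 at 20.0 and 36.2 h (0.86). HSP90B1 reached the ceiling in male cells from 50.4 h, and DNAJC10 was at the ceiling in every group, so no difference in its half-life could be seen. Beyond 24 h, 4 h of labelling resolves little. Their synthesis rates went the other way in 5 of 7: the ratio was −0.67 for HSPA5, −0.87 for DNAJB11 and −1.001 for DNAJC1, but 0.35 for HSP90B1 and 0.38 for DNAJC10. Implied levels were higher in male cells for all 7, from 0.02 for HSPA13 to 0.51 for HSPA5 and 0.81 for HSP90B1, none past the threshold. Relative to genes of similar half-life the median of the 7 was 0.40 for half-life in place of 0.86, and 0.02 for level in place of 0.44. In old cells the same 7 had half-life ratios from −0.17 (DNAJB11) to 0.40 (HSP90B1) and level ratios from −0.09 (HSPA5) to 0.44 (HSP90B1).

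**Figure D3:**
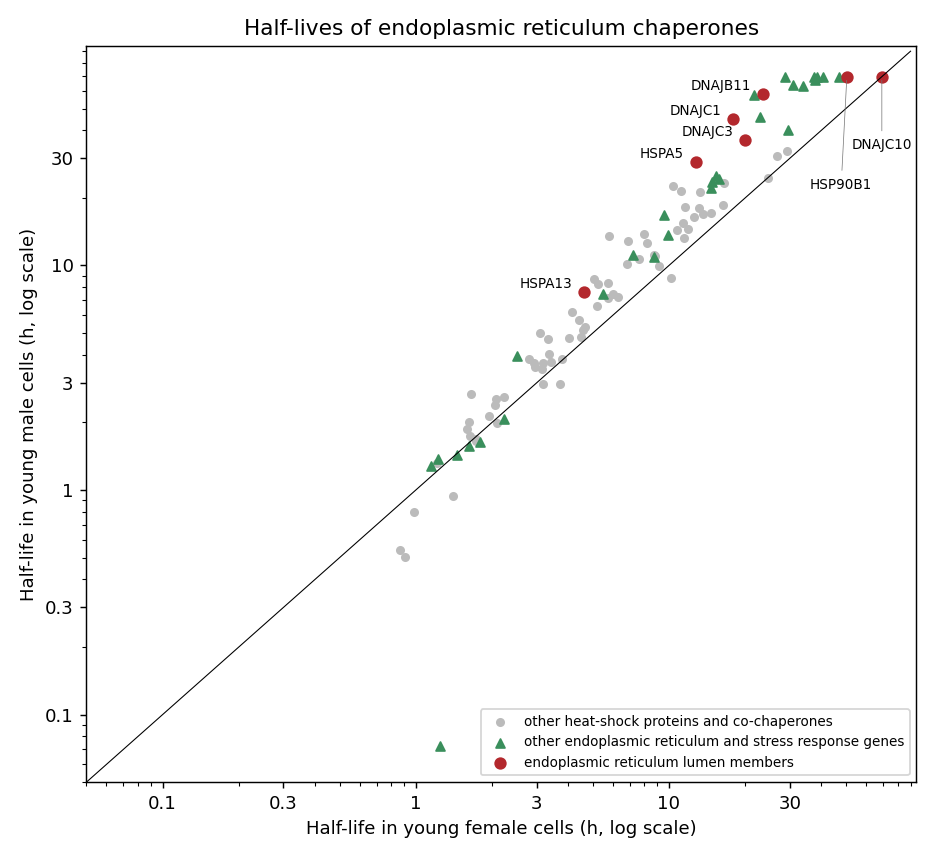
Half-life in young male cells (y axis) against young female cells (x axis), in h on log scales; red points are the 7 endoplasmic reticulum lumen members, green triangles the 28 other endoplasmic reticulum and stress response genes listed, grey points the other members, and the line marks equal values. HSPA5 at 12.7 and 28.8 h and DNAJB11 at 23.5 and 57.9 h lie above the line.

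A list of 28 further genes of the endoplasmic reticulum and its stress response, none of them members, had a median male half-life ratio of 0.63, with 23 of 28 longer and 4 past the threshold upward, where 77.3% of all genes were longer and 5.62% past it. These 4 were SDF2L1, a partner of DNAJB11 (21.6 h in young female and 57.5 h in male cells), PDIA4, a disulfide isomerase (28.8 h and the ceiling), CALR, the lectin chaperone calreticulin (31.0 and 63.5 h), and ERO1B, an oxidase that feeds the isomerases (23.0 and 46.0 h). Within deciles of half-life the median of the list was 0.18 (21 of 28 above 0), and none of these 4 was past the threshold (0.50 for ERO1B to 0.95 for SDF2L1). DDIT3, the stress factor CHOP, was past it downward, at 1.24 and 0.0722 h, with a synthesis ratio of 4.14 and a level ratio of 0.04. Its male half-life lay under 1 h, below the range taken as resolvable. Implied levels of PDIA4 (1.03) and CRELD2 (1.17) were past the threshold upward in male cells, though not within deciles (0.60 and 0.74), and that of ATF3, a transcription factor of several stress responses, downward (−1.70). ATF3 and ERO1B had male synthesis ratios of −2.36 and −1.01, the latter −0.73 when centred on all genes.

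In old cells the same list had a median half-life ratio of −0.05, and 1 of 28 was past the threshold, against 3.53% of all genes: SERPINH1, the collagen chaperone HSP47. Its half-life was 9.92 h in young female and 4.56 h in old cells (−1.12), its synthesis rate 5109 and 5880, and its level ratio −0.92. ERN1, a stress sensor of the compartment, had a synthesis ratio of 1.69 and a level ratio of 1.10. The synthesis ratio of DDIT3 was 1.22 and its level ratio 0.68.

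The cytosolic HSP90 genes, whose proteins fold kinases and steroid receptors, were not past the threshold in any quantity. HSP90AB1 had half-lives of 8.70 h in young female and 7.51 h in old cells, and 8.69 and 11.2 h in young female and male cells, with level ratios of −0.30 and −0.05. HSP90AA1 had 14.7 and 12.1 h by age and 14.7 and 17.2 h by sex. Of the proteins that work with HSP70, HSP90 or both, STIP1, the adaptor that passes clients between them, had a half-life of 4.499 h in young female and 3.46 h in old cells and a level ratio of −0.47. AHSA1, which speeds the HSP90 cycle, had −0.14 in old and −0.17 in male cells. ST13, an HSP70-binding protein, had 0.04 and −0.04, and STUB1, the ubiquitin ligase that sends clients to the proteasome, −0.09 and 0.33. None of these 4 was past the threshold in any quantity. A list of 21 further HSP70 and HSP90 cofactors, of which 20 were listed, had 1 call, a male synthesis ratio of −1.22 for PPID, an HSP90-bound prolyl isomerase, which was −0.94 when centred on all genes.

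The small heat-shock proteins were the 1 class with higher male synthesis throughout. The male ratio was 0.29 for HSPB1, 0.47 for HSPB2 and 0.59 for HSPB6, and the level ratios were 0.29, 0.71 and 0.78. The half-life of HSPB1 was 24.6 h in both young groups of the sex table and 15.8 h in old cells against 24.6 h in the age table (−0.64). HSPB6, known for its abundance in muscle, had 16.4 h in young female and 13.1 h in old cells, and its level ratio in old cells was −0.55. Within deciles of half-life the male level ratios became −0.00 for HSPB1 and 0.49 for HSPB6.

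The 7 CCT subunits had half-life ratios of one sign in each comparison, and none of them was past the threshold. In old cells all 7 had shorter half-lives, from −0.16 for CCT3 to −0.75 for CCT8 (11.4 and 6.79 h), and all 7 had lower levels, from −0.25 to −0.61. The median level ratio was −0.36 against 0.00 over all genes, and all 7 stayed below 0 after centring within half-life deciles (median −0.35). Over all genes 63.1% of half-lives were shorter in old cells. With the young female values of the sex table instead, the 7 level ratios lay between −0.54 and −0.18. In male cells all 7 half-lives were longer, from 0.32 to 0.80 (CCT4, 7.98 and 13.9 h), and all 7 synthesis rates lower, from −0.41 to −0.81, as were 77.3% and 71.1% of all genes. Within half-life deciles the male half-life median of the 7 was 0.05, with 5 of 7 above 0, and the synthesis median −0.35, with all 7 below 0. Male levels of the CCT genes stayed between −0.17 and 0.09. Of 12 folding cofactors for actin and tubulin outside the name rule, all listed, TBCE alone was past the threshold, with a male half-life of 25.8 against 11.5 h (1.16, or 0.70 within half-life deciles).

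Prefoldin, a hexamer that hands clients to the chaperonin, was represented by 4 subunits. PFDN5 had the longest half-lives, 29.3 h in young female, 31.2 h in old and 32.4 h in male cells, and level ratios of 0.36 by age and 0.32 by sex. PFDN1 went the other way, with level ratios of −0.35 and −0.48. PFDN4 and PFDN6 lay between, at −0.12 and −0.04 in old and −0.30 and −0.14 in male cells. The mitochondrial chaperonin HSPD1 had a half-life of 11.5 h in young female and 7.97 h in old cells (−0.53) and level ratios of −0.36 by age and −0.40 by sex. Its lid HSPE1 had level ratios of −0.14 and −0.18.

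**Figure D4:**
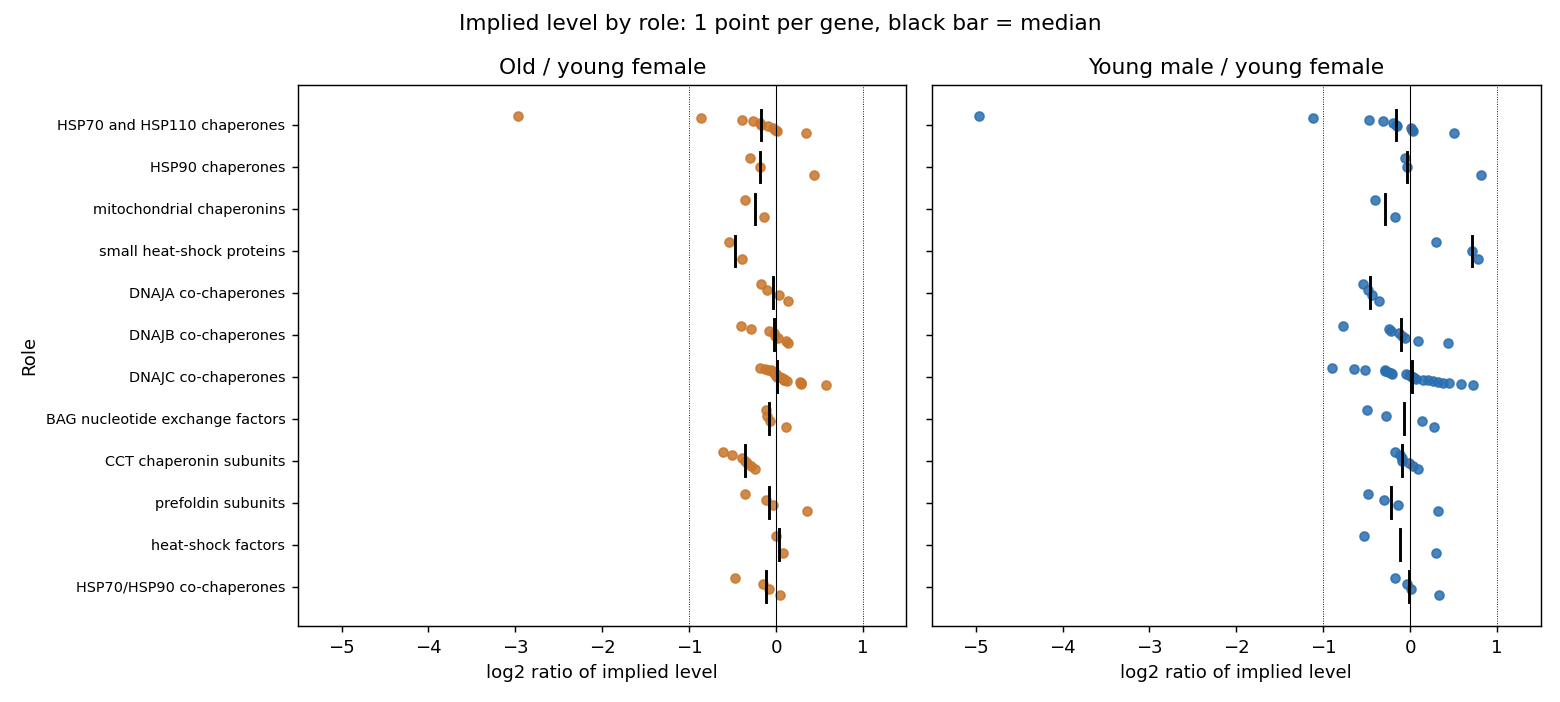
Log2 ratio of implied level for each member by role, old over young female on the left and young male over young female on the right; each point is 1 gene, black bars are medians of the role and dotted lines mark 2-fold differences. HSPA6, at −2.97 and −4.96, is the far left point, and the 7 CCT subunits lie between −0.61 and −0.25 in old cells.

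All 4 DNAJA genes, the general-purpose partners of HSP70, had lower male synthesis rates, from −0.57 for DNAJA1 to −0.81 for DNAJA3, and lower male levels, from −0.36 to −0.54, where 71.1% and 49.5% of all genes were lower. Within half-life deciles their median was −0.30 for male synthesis in place of −0.70, and −0.31 for male level in place of −0.46. In both, 0 of 4 were above 0. DNAJA1 had synthesis rates of 1713 in young female and 1152 in male cells, and 1791 and 2137 in young female and old cells. In old cells the 4 level ratios lay between −0.17 and 0.14.

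Of the 8 DNAJB genes, DNAJB5 had an old synthesis ratio past the threshold. Its synthesis rate was 354 in young female and 748 in old cells (1.08) and its half-life 1.33 and 0.694 h (−0.94), which left a level ratio of 0.14. The synthesis ratio was 0.9990 when centred on all genes and 0.89 within half-life deciles, both under the threshold. The old half-life of DNAJB5 lay under 1 h, below the range taken as resolvable. DNAJB4 had the largest difference in male level of its class, −0.78. Its half-lives of 0.866 h in young female and 0.539 h in male cells were also under 1 h. DNAJB2, a J protein that binds ubiquitin chains, had shorter half-lives in both comparisons, 3.72 to 2.49 h by age and 3.71 to 2.97 h by sex. DNAJB6, which keeps aggregation-prone proteins soluble, had level ratios of 0.11 and −0.12.

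Of the 23 DNAJC genes, 3 had male half-lives past the threshold, all longer, where 5.62% of all genes were past it upward. The 3 were DNAJC1, described above, DNAJC15, a mitochondrial J protein (5.80 h in young female and 13.6 h in male cells, 1.23), and DNAJC25 (10.4 and 22.5 h, 1.12). Their synthesis ratios were −1.001, −0.97 and −0.91, and their level ratios 0.33, 0.26 and 0.20. All 3 half-life ratios were under the threshold when centred within half-life deciles, to 0.86, 0.87 and 0.65. DNAJC24, a co-chaperone of diphthamide synthesis, came close at 0.95. DNAJC30, a mitochondrial J protein, had the opposite pattern, with male ratios of −0.85 for half-life and 0.92 for synthesis rate and old ratios of −0.73 and 0.85; its male half-life was 0.502 h. Within half-life deciles its male synthesis ratio was 1.24, past the threshold. The half-lives of DNAJC30 were under 1 h in every group, below the range taken as resolvable. The male level ratios of the class ran from −0.90 (DNAJC27) to 0.73 (DNAJC4), and in old cells the level ratios of all 23 lay between −0.18 (DNAJC17) and 0.57 (DNAJC12).

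The BAG genes fell into a short-lived and a long-lived pair in each group. BAG4 and BAG5 were short-lived at 0.953 and 1.22 h in young female cells, and BAG6, which guards membrane proteins before insertion, and BAG1, an exchange factor that links HSP70 to the proteasome, long-lived at 12.0 and 12.5 h. The pairs stood at 0.867 and 1.19 h and at 10.4 and 10.6 h in old cells, and at 0.801 and 1.32 h and at 14.6 and 16.4 h in male cells. Their level ratios lay between −0.11 and 0.11 in old cells and between −0.49 (BAG4) and 0.27 (BAG6) in male cells.

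HSF1, the main heat-shock factor, had synthesis rates of 629 in young female and 561 in old cells, and 598 and 618 in young female and male cells. Its level ratios were 0.00 and 0.29. HSF2, a factor with developmental roles that can pair with HSF1, had a lower male synthesis rate, 78.5 against 184 (−1.23), a longer male half-life, 2.68 against 1.65 h (0.70), and a level ratio of −0.53. The synthesis ratio of HSF2 was −0.95 after centring on all genes. In old cells its ratios were 0.14 for synthesis and −0.06 for half-life. The RNA values of HSF1 and HSF2 themselves say nothing of the activity of these factors, which is set on the protein.

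A list of 16 stress-inducible genes outside the name rule, often used as heat-shock factor targets, had 14 genes listed; ATF3 and SERPINH1 are also in the endoplasmic reticulum list. In male cells their median log2 ratio of level was −0.35, with 3 of 14 above 0, where 50.5% of all genes were. Within half-life deciles that median was −0.23, with 5 of 14 above 0. HMOX1, haem oxygenase, had a male synthesis rate of 5166 against 18805 (−1.86) and a level ratio of −1.67, and ATF3 a level ratio of −1.70. IER5, an HSF1 target that acts back on it, had a male synthesis ratio of −1.06, or −0.78 when centred on all genes. In old cells the median level ratio was −0.08, and all 14 had shorter half-lives (median −0.48) and higher synthesis rates (median 0.29), as 63.1% and 60.2% of all genes did. Within half-life deciles 1 of 14 half-lives was above 0, with a median of −0.40, and 12 of 14 synthesis rates were, with a median of 0.21. SERPINH1 was past the threshold for half-life. DEDD2 was past it for old half-life and synthesis and for male synthesis (−5.56, 5.63 and −1.01), but its young female half-life was 0.747 h in the age table and 0.0303 h in the sex table for the same libraries. Against the other table's young female values these ratios were −0.93, 1.11 and 3.51, so the half-life call was lost and the male synthesis ratio changed sign. All of 13 mitochondrial quality control genes outside the name rule were listed. Of these GRPEL2, an exchange factor of HSPA9, had ratios of 3.98 for half-life and −3.85 for synthesis in old cells. Its ratios in male cells were 3.13 and −3.44. Its half-lives were all under 1 h and its level ratios were 0.13 and −0.31. CLPX had a male synthesis ratio of −1.18, or −0.90 when centred on all genes.

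Synthesis rate and half-life tended to oppose each other in the family as over all genes. Among members 53 of 74 had ratios of opposite sign in old cells and 64 of 75 in male cells, or 71.6% and 85.3%, against 70.4% and 76.2% of all genes. Across members the Spearman correlation was −0.44 by age and −0.64 by sex, and across all genes −0.53 and −0.55. Both quantities of a gene come from the same libraries, genes are not independent replicates, and no p was computed.

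The genes with the pattern most like that of HSPA6 were sought by Euclidean distance over its 4 ratios, synthesis and half-life by age and by sex. Of 10900 genes outside the family the nearest 3 were HTR2A, OSR2 and SNAI2, at distances of 3.67, 3.83 and 3.96 log2 units. All 3 had young female half-lives under 1 h, below the range taken as resolvable. That of HTR2A was 0.0174 h in the sex table and 0.00801 h in the age table, for the same libraries. OSR2, the middle one, had synthesis ratios of −4.04 by age and −5.21 by sex, but its half-lives were 0.0557 and 0.416 h in young female and old cells, both under 1 h. On these listed values its low synthesis was offset by a longer half-life far more than in HSPA6.

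The young female values listed in both tables show how much an estimate moved with its table. Among the 74 members in both, the half-life differed by under 5% for 69 and by under 1% for 59. DNAJC27 differed most, by 28.9% (1.35 and 1.73 h). With its young female values from the age table, its male half-life ratio was 0.33 in place of −0.03 and its synthesis ratio −1.30, past the threshold, in place of −0.87. Implied levels differed by a near-constant factor of 0.953 to 0.955. The repeat shares its reads and holds none of the variation between animals.

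Markers of cell type also differed between the groups. Of 13 chondrocyte markers 12 were listed, among them COL2A1, ACAN and SOX9; 8 of the 12 had male levels past the threshold upward and 2 of 12 old levels downward, and their summed level was 1759159 in young female and 4430310 in male cells, and 1842495 and 1663064 in young female and old cells. Of 6 markers of fibroblastic or dedifferentiated cells, 6 were past it upward in male cells (summed level 221233 and 608088) and 3 of the 5 listed were past it downward in old cells (231622 and 134503). Bone markers had 2 of 5 listed, IBSP and SPP1, both past it upward in male level. Over all genes, 3.00% had male levels past the threshold upward and 1.99% had old levels past it downward. For endothelial, leukocyte and muscle cells 1 of 6, 1 of 8 and 1 of 5 markers had a value (VWF, CD14 and DES), and none of these was past the threshold. The part of cell make-up in the ratios of the chaperones was not tested. The labels gave 12 batch numbers for 13 samples, and only batch 10 held samples of more than 1 group. Batch numbers also differed within each group, but with 1 value per group, batch and group cannot be told apart.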

How the data were processed

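Per the labels' protocols, cells were labelled with 4sU for 4 h, and RNA was extracted, alkylated with iodoacetamide for 15 min at 50 °C, poly(A)-selected and made into strand-specific libraries. The submitters' processing notes name cutadapt 4.5, STAR 2.5.3 and the genome build EquCab3.0; the kinetic model, gene filter, unit of synthesis and way of combining replicates are not given in the sources used here. The authors deposited 2 tables with 1 synthesis rate and 1 half-life per gene and group. Half-lives were read as hours because values stopped at 69.3, a decay rate of 0.01 per h.

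Members were found by name. Log2 ratios were taken within a table over all genes, with no pseudocount and no gene removed, in Python 3.11.15 with pandas 2.3.3, and the steps were tested on simulated data. A test on values per sample was planned in case such values were given. Members and lists were chosen with earlier results of these data known. Members named were those past the threshold, the shortest, the longest and the highest implied level of each role, and a fixed set of core genes; others were added after their values were seen. Deciles for centring came from young male half-lives in the age comparison and old half-lives in the sex comparison. Alternatives were a threshold of 0.5, half-lives of 1 to 24 h, young female values of the other table, centring, and the upper 75% by synthesis rate; deciles, removal of ceiling values and leaving out HSPA6 were added after seeing the data.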

Additional observations from a re-analysis of the deposited data

How the results depend on the processing

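No paired analysis was possible because the tables hold 1 value per group and none per replicate, and leaving out a replicate was not run for the same reason. A count was taken as moved past 1.5 times and a median past 0.05 log2 units; 53 alternative values stayed within these limits, 31 moved, and the cause was not tested unless fewer genes entered. Leaving out ceiling half-lives moved none of them. No named member past the threshold was reversed under any alternative run.

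At a threshold of 0.5 the counts by sex were 24 (half-life), 41 (synthesis rate) and 14 (level), and by age 10, 6 and 6. For male half-life the count was 2 within 1 to 24 h, 3 after centring on all genes (DNAJC30 among them), 3 in the upper 75% by synthesis rate and 0 within half-life deciles. For male synthesis it was 3 in the upper 75% and 2 within deciles, and for male level 1 within deciles and 1 without HSPA6. For old half-life it was 1 in the upper 75% and 1 without HSPA6, and for old level 0 without HSPA6.

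Median ratios moved as follows. With young female values taken from the other table they were −0.58 for male synthesis, −0.14 for male level, 0.14 for old synthesis and 0.015 for old level. Centred on all genes they were 0.037 for male half-life, −0.23 for male synthesis, −0.055 for old half-life and −0.023 for old synthesis. Within half-life deciles they were −0.021 for male half-life, −0.21 for male synthesis, −0.14 for male level, −0.046 for old half-life and 0.0052 for old synthesis. Within 1 to 24 h male level was −0.12. Further calls appeared for DNAJC30 (male half-life −1.13 and synthesis 1.20 when centred on all genes). With the other young female values they appeared for DNAJC27 and DNAJC15 (male synthesis −1.304 and −1.02) and DNAJB5 (old half-life −1.02). All half-lives of DNAJC30, and the old half-life of DNAJB5, lay under 1 h.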
